A study of Homo sapiens with 4 samples.

Results

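The genes between the ParaHox cluster and FLT1 on the long arm of chromosome 13 were examined for chromatin accessibility in SEM cells, a human B cell precursor leukemia line with an MLL rearrangement. All cells carried dCas9-KRAB, a nuclease-dead Cas9 joined to the KRAB repressor domain, and 1 of 2 guide RNAs, which was sgFLT3-DE-1 for the HOXA9-bound distal enhancer of FLT3 or the non-target guide sgNT. Accessibility was read by ATAC-seq, in which a transposase cuts open DNA and tags it for sequencing, in 2 libraries for each guide. The study's reporting summary calls the libraries biological replicates, but the labels do not say whether they came from separate cultures. The p-values therefore measure only the spread between libraries, which may be technical. All values come from 1 cell line and 1 targeting guide. The members were the consensus peaks lying in chr13:28450000-29100000 (hg19), each given to the coding gene whose body it overlapped or else to the gene with the nearest coding start. They numbered 87 of 139872 peaks, namely 40 for PAN3, 21 for FLT1, 17 for FLT3, 5 for CDX2, 1 for PDX1 and 3 for URAD, which lies between CDX2 and FLT3. Of the 87 peaks, 72 lay in gene bodies and 15 between genes.

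FLT3 encodes a receptor tyrosine kinase of blood progenitors that is activated by FLT3 ligand and is often highly expressed or mutated in acute leukemia. FLT1 encodes a receptor of the vascular endothelial growth factor family, which is best known from blood vessels. PAN3, which lies between them and holds the targeted enhancer in an intron, encodes a subunit of a nuclease that shortens the poly(A) tails of mRNA. CDX2 and PDX1 are homeobox genes of the ParaHox cluster, with main roles in the intestine and the pancreas, and CDX2 is also switched on in some acute leukemias. KRAB recruits corepressors that place repressive histone marks, and these marks can spread outward from a guide site. The comparison asked how far along the chromosome, and at which genes, accessibility differed between the guides. A lower count can come from fewer cells with an open site or from less cutting per cell, and bulk libraries cannot tell these apart.

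Total counts in consensus peaks were 3670758 and 4831164 under sgFLT3-DE-1 and 3321429 and 2683477 under sgNT, and the window held 0.108% and 0.138% against 0.126% and 0.152% of them. Promoter peaks were found at 9 of 11 B cell precursor markers, and their summed level was 172 and 209 against 182 and 213 normalised CPM (the count divided by the library's TMM-scaled total, on the usual CPM scale). CD79A and BLNK had none. Promoter peaks were also found at 4 of 6 myeloid markers, with sums of 13.59 and 22.997 against 13.37 and 18.82 normalised CPM. At 2 of 5 T cell markers the sums were 14.83 and 20.34 against 13.03 and 16.02, mostly from CD8A (means 16.57 against 14.52). Of 5 erythroid markers only HBB had such peaks, at 573 and 239 against 60.8 and 45.2 normalised CPM. Of 5 endothelial markers only KDR had one, at 0.927 and 1.11 against 1.34 and 1.2, and of 7 pancreas or gut markers only EPCAM, at 0.927 and 1.33 against 0.334 and 0.40. How these markers bear on the neighbourhood was not tested.

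The guide's target sequence and the region around it are shown because every distance below is counted from this site. The protospacer occurs once in GRCh37, on the plus strand of intron 12 of PAN3 at chr13:28843152-28843171. It lies 131 kb from the PAN3 start, 168 kb from the FLT3 start, 226 kb from the FLT1 start, 299.7 kb from the CDX2 start and 349 kb from the PDX1 start. In the 300 bases at chr13:28843012-28843311 the capitals mark the protospacer and its PAM.
Guide site: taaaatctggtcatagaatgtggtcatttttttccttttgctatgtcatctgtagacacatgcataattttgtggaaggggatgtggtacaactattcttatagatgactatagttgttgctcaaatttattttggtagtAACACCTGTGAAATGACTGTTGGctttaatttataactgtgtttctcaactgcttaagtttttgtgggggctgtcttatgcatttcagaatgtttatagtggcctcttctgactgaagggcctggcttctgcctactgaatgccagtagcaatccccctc
The 200 central bases of the target peak at chr13:28842815-28843351 (chr13:28842983-28843182) follow, with every match to the searched motifs in capitals. All 3 are TGTGGT, the core of the RUNX1 site, and lie before the protospacer on the plus strand.
PAN3 target: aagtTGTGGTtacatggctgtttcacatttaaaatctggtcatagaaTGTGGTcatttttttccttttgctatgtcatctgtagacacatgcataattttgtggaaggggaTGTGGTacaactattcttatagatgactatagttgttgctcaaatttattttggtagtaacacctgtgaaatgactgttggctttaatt
The peak at chr13:28819743-28819964 in intron 6 was the other member over a HOXA9-bound region of the study, and it held none of the 7 motifs in its central 200 bases (chr13:28819754-28819953).
PAN3 intron 6: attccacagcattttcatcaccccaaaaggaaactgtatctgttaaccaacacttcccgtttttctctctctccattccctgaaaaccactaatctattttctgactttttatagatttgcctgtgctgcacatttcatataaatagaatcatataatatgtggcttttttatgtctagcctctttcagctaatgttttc
The FLT3 peak with the highest mean over all 4 libraries outside the start, in intron 1 (chr13:28645676-28645875), and the highest FLT1 peak, in intron 10 (chr13:28997195-28997394), are shown for comparison, with matches in capitals. Both held TGACAG, the MEIS1 core, and the FLT1 peak also held the reverse complement of AGGAAGT, an SPI1 site.
FLT3 intron 1: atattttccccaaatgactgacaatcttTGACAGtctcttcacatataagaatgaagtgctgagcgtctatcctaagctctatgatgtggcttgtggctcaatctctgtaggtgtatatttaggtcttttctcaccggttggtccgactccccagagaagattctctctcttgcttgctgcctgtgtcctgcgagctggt
FLT1 intron 10: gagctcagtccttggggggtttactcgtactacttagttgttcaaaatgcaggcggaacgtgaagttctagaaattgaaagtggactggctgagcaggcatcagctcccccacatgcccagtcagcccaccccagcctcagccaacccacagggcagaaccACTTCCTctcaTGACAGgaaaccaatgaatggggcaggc

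Over all 87 members, the central 200 bases were searched on both strands, in windows of the same length at all 139872 peaks. TGTGGT (RUNX1) occurred in 19.5% of the members and 28.6% of all peaks. TGACAG (MEIS1) occurred in 17.2% and 15.9%, AGGAAGT (SPI1) in 16.1% and 13.1%, and AGGGGGC (CTCF) in 4.6% and 6.35%. The homeobox words were rare in both sets: TAATTA (PDX1) in 3.45% and 3.36%, CAATAAA (CDX2) in 2.3% and 3.28%, and TGATTTAT (HOXA9) in 0% and 1.16%. No word contains another, and a match is a string of letters rather than a bound site.

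The starts of the 6 genes differed in both sequence and accessibility. FLT3 and PAN3 had peaks over their starts (2 and 3 promoter peaks, within 1 kb of a coding transcript start), whereas no consensus peak lay within 1 kb of a coding start of FLT1, CDX2, PDX1 or URAD. The 250 bases before each start are therefore compared, with CG pairs in capitals, for a gene with an open start (FLT3, chr13:28674730-28674979, minus strand) and for 2 genes without one (FLT1, chr13:29069283-29069532, and CDX2, chr13:28543453-28543702, both minus strand).
FLT3: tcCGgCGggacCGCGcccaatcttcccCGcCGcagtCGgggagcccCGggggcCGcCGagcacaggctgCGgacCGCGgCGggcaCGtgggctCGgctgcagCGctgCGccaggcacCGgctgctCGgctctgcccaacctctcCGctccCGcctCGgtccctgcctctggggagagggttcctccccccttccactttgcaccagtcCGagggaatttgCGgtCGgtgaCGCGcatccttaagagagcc
FLT1: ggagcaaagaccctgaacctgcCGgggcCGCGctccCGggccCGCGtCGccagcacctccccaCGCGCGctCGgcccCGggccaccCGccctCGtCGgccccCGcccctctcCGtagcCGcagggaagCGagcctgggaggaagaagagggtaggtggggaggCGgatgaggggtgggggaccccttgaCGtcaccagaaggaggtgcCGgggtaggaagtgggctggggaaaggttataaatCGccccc
CDX2: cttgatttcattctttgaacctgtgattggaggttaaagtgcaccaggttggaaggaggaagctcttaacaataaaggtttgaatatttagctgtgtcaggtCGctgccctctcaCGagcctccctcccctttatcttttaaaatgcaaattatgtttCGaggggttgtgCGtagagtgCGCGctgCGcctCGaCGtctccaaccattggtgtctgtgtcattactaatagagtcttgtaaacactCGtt
The stretch held 28 CG pairs for FLT3, 23 for FLT1, 21 for PAN3, 19 for PDX1, 10 for CDX2 and 6 for URAD. The median was 11 over the same stretch of 35116 promoters in RefSeq (GRCh38.p14). FLT1 thus had nearly as many CG pairs as FLT3, but its nearest peak lay 6.24 kb away, in intron 1, at 5.41 normalised CPM under sgFLT3-DE-1 and 5.34 under sgNT. The peak nearest the CDX2 start lay 1.74 kb away in intron 1 and had 12 and 9 counts under sgFLT3-DE-1 and 1 and 2 under sgNT, too few to pass the count filter. The nearest peak of PDX1 lay 14.0 kb downstream of its start.

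Levels were compared per kb of covered sequence, since peaks differ in length. FLT3 peaks had 80.5 ± 10.2 normalised CPM per kb under sgFLT3-DE-1 and 88.2 ± 10.0 under sgNT (SD, n = 2 each, as below). PAN3 peaks had 72.9 ± 9.46 and 89.9 ± 7.02, and the 3 URAD peaks 95.1 ± 1.42 and 91.7 ± 18.0. In sgNT cells these 3 genes lay within 1 SD of each other. CDX2 followed with 72.2 ± 6.34 under sgFLT3-DE-1 and 64.1 ± 12.3 under sgNT, and FLT1 with 45.1 ± 8.47 and 44.3 ± 6.00. PDX1, with its single peak, was lowest at 26.7 ± 3.27 and 19.8 ± 6.72. In sgNT cells the FLT1 and PDX1 libraries did not overlap with those of each other or of the 4 other genes.

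**Figure D1:**
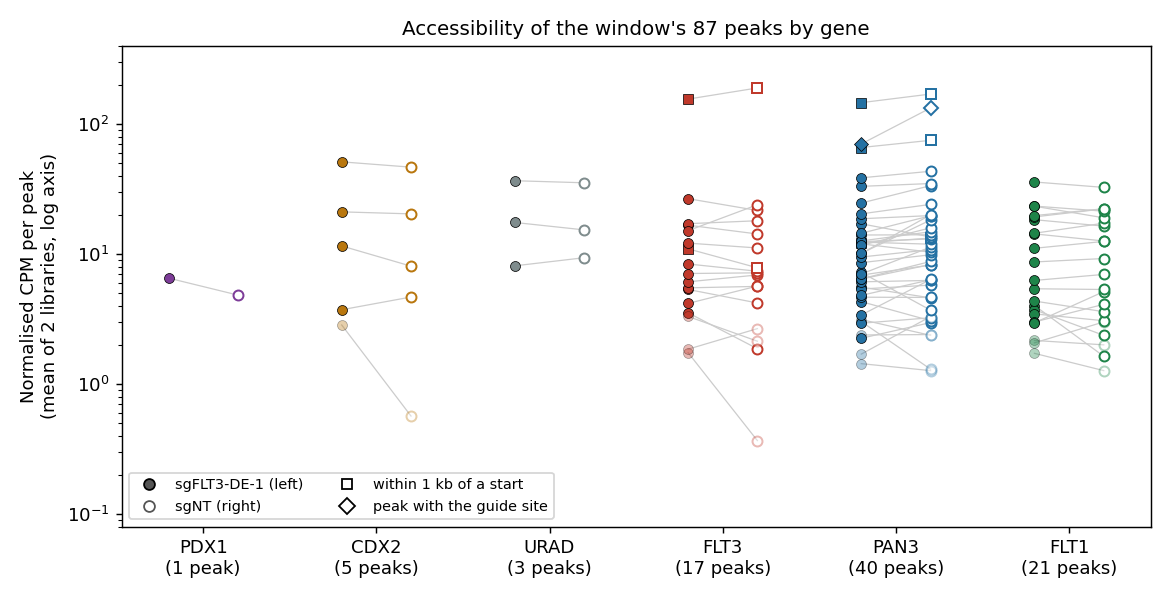
Normalised CPM of each of the 87 peaks on a log axis, as the mean of 2 libraries, by gene, with sgFLT3-DE-1 on the left and sgNT on the right of each gene. Squares are peaks within 1 kb of a coding start, the diamond is the peak with the guide site and pale symbols did not pass the count filter. The peaks over the FLT3 start (156 against 190.0) and in PAN3 exon 1 (146 against 171) are the highest, and FLT1, CDX2, PDX1 and URAD have no square.

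The distribution of that signal differed between genes. The peak over the FLT3 start held 51.7% of the summed level of FLT3 under sgFLT3-DE-1 and 57.4% under sgNT. The 3 PAN3 promoter peaks held 34.0% and 31.8% of the PAN3 sum. FLT1 had no dominant peak, and its highest, in intron 10, held 15.8% and 14.5%. The highest CDX2 peak, at chr13:28527795-28528292, held 56.6% and 58.1%, but it lies 15.2 kb downstream of the CDX2 start and overlaps the long noncoding gene LINC00543, so it is a CDX2 peak only by distance. Summed over all peaks of a gene under sgNT, PAN3 was at the 99.9th percentile of the 16489 genes with a peak. FLT3 was at the 97.4th, FLT1 at the 95.0th, CDX2 at the 75.1st, URAD at the 67.8th and PDX1 at the 19.0th. Such a sum grows with the number and length of a gene's peaks. Per kb of covered sequence, URAD was at the 97.1st percentile, PAN3 at the 97.0th and FLT3 at the 96.7th. By this measure CDX2 was at the 90.9th, FLT1 at the 72.9th and PDX1 at the 14.9th.

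Across the whole window, most PAN3 peaks had lower estimates with sgFLT3-DE-1, except without sgNT replicate 2, whereas the split for FLT3 and FLT1 turned with the setting or the library left out. No difference passed the test. Of the 75 peaks that passed the count filter, the estimate was below 0 for 42, meaning less signal under sgFLT3-DE-1, and above 0 for 33. Lower estimates made up 27 of 35 for PAN3, 5 of 14 for FLT3, 8 of 18 for FLT1 and 2 of 8 for CDX2, PDX1 and URAD together, against 48.1% of all 82558 tested peaks. The median log2 fold change was -0.18 for PAN3, 0.09 for FLT3, 0.10 for FLT1 and 0.10 for CDX2, against 0.01 over all tested peaks. No member passed FDR 0.05 by edgeR's quasi-likelihood test (Benjamini-Hochberg over all tested peaks, adjusted p = 1.0 for each), and genome-wide 0.00242% of peaks passed in either direction and 0% passed as lower. Without adjustment, 4 members were lower and 1 was higher at p under 0.05, against 1.07% and 0.827% of all tested peaks.

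The contrast between PAN3 and the other genes rested in part on single libraries. Without sgNT replicate 2, PAN3 had 17 lower and 21 higher estimates, and without sgFLT3-DE-1 replicate 1 it had 20 and 17. Without sgFLT3-DE-1 replicate 2, FLT3 had 10 lower and 5 higher and FLT1 had 13 and 5, and without sgNT replicate 1 the split was 9 and 7 for FLT3 and 12 and 7 for FLT1. More peaks passed the filter when a library was left out. After a correction for GC content the split was 28 and 7 for PAN3 and 7 and 7 for FLT3, and among peaks with a mean count of 50 or more it was 9 and 1 for PAN3 and 3 and 2 for FLT3.

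**Figure D2:**
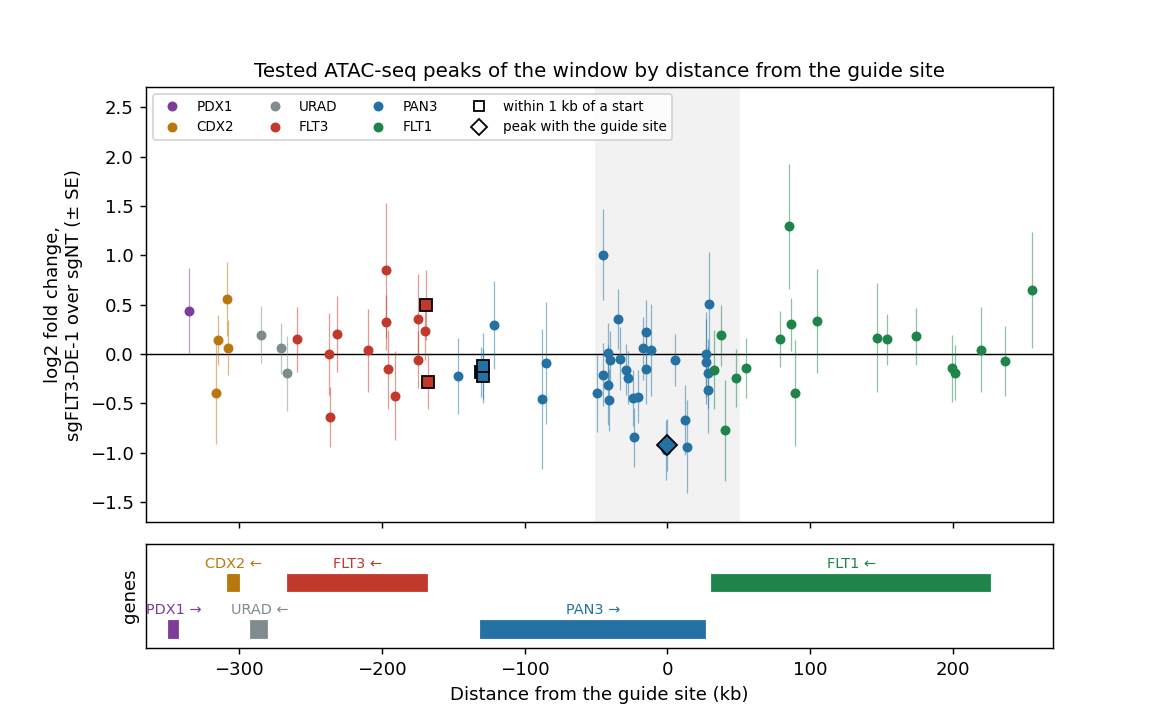
Log2 fold change with its standard error of the 75 tested peaks (vertical axis) by distance from the guide site in kb (horizontal axis), coloured by gene, with the gene bodies drawn to scale underneath and arrows for the direction of transcription. The shaded band spans 50 kb on either side of the guide, squares are peaks within 1 kb of a start and the diamond is the peak with the guide site (-0.92). Outside the band most error bars reach 0, and estimates lie on both sides of it (18 lower, 25 higher).

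In the host gene PAN3 (chr13:28712643-28869472, plus strand, 19 exons), 28 of the 35 tested peaks lay within 50 kb of the guide. Estimates were lower for 21 of these 28 and for 6 of the 7 farther out. The target peak had 214 and 338 counts with sgFLT3-DE-1 against 378 and 350 with sgNT, which is 66.1 and 74.7 against 126 and 140.1 normalised CPM. The groups did not overlap, as was so for 13.8% of all tested peaks in the lower and 13.7% in the higher direction. By edgeR the change was -0.92 on the log2 scale, with an SE of 0.264 (adjusted p = 1.0). Before adjustment the edgeR p was 0.00164, at rank 14 among the 82558 tested peaks. The target peak passed under 3 of the alternative fits, among them loess offsets over mean count in place of TMM (-0.87, adjusted p = 0.0354). The 27 other PAN3 peaks within 50 kb summed to 292 and 381 against 366 and 420 normalised CPM, with 20 lower and 7 higher estimates. These ranges overlapped, since the deeper sgFLT3-DE-1 library exceeded the lower sgNT library.

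Most of these PAN3 peaks lay in the long intron 6, which held 16 tested peaks, 11 of them with lower estimates. The HOXA9-bound peak of intron 6 had 9.88 and 10.4 against 17.4 and 19.2 normalised CPM, and edgeR put the log2 difference at -0.84 (SE 0.303). The member nearest the target, at chr13:28841748-28841965 in intron 12, had 8.96 and 11.3 against 19.7 and 20.4 (log2 difference -0.97, SE 0.300). It too passed under 2 of the alternative fits, and it was chosen for description after its values were seen. On the other side of the target, a peak in intron 14 at 4.94 kb had 26.9 and 39.6 against 31.4 and 38.4. It overlapped between groups (log2 fold change -0.06, SE 0.264), and it too was chosen after its values were seen. The highest estimate of PAN3 was at chr13:28798033-28798135, also in intron 6, with 16 and 43 against 9 and 11 counts (log2 difference 1.01, SE 0.460).

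Beyond 50 kb from the guide, PAN3 had 7 tested peaks, 6 of them with lower estimates. The 3 at its start carried most of the signal. In exon 1 and intron 1, at chr13:28713146-28713839, there were 142 and 150.4 against 168 and 173 normalised CPM (log2 fold change -0.22, SE 0.271). Over the start itself, at chr13:28712184-28712755, there were 59.3 and 73.0 against 74.5 and 75.7 (-0.18, SE 0.256). Neither peak overlapped between groups, and each difference was smaller than its standard error. With the correction for GC content the log2 fold changes were -0.12 (SE 0.393) in exon 1 and intron 1 and -0.06 (SE 0.306) over the start. The third, at chr13:28714124-28714224, had 13.3 and 11.1 against 9.36 and 17.2 and overlapped (-0.12, SE 0.333), and its estimate was above 0 without sgFLT3-DE-1 replicate 2 (0.01) or without sgNT replicate 2 (0.35). The 9 remaining PAN3 peaks beyond 50 kb summed to 27.5 and 31.2 against 25.4 and 34.0, at 98.7% of the sgNT mean. Their groups overlapped in the sum, although 3 of the 4 that were tested had lower estimates.

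At FLT3 (chr13:28577411-28674729, minus strand, 24 exons), the peak over the start and the introns gave different values. The start peak, chr13:28674277-28675153, covers upstream sequence, exon 1 and part of intron 1. By level under sgNT, without regard to length, it was at the 99.99th percentile of all peaks. Per kb under sgNT it was at the 99.8th, with 217 normalised CPM per kb. The PAN3 peak in exon 1 and intron 1 had 246 and the target peak 248. The FLT3 start peak had 149.8 and 162 normalised CPM under sgFLT3-DE-1 and 182 and 198 under sgNT. Both sgFLT3-DE-1 libraries lay below both sgNT libraries, but the log2 fold change of -0.28 (SE 0.274) was little larger than its error. With the correction for GC content it was -0.13 (SE 0.404). At promoters in general, 62.7% of tested peaks had lower estimates, against 44% of other tested peaks, and the median log2 fold change was -0.09 at promoters and 0.05 elsewhere. The 5 promoter peaks of FLT3 and PAN3 included 4 with lower estimates. The exception was a small peak in FLT3 intron 1 at 0.956 kb from the start, chr13:28673673-28673773, with 9.58 and 12.4 against 7.69 and 8.01 (log2 fold change 0.50, SE 0.35).

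The FLT3 introns held 14 peaks, which summed to 113 and 153 normalised CPM under sgFLT3-DE-1 and 114 and 151 under sgNT. Both guides thus gave nearly the same intronic sum (100.3% of the sgNT mean), with a spread between libraries of one guide larger than the difference. Of the 12 tested, 8 had higher and 4 lower estimates. The highest of them by mean over all 4 libraries, in intron 1 at chr13:28645647-28645904, had 22.2 and 31.2 against 17.7 and 25.6. The 1 FLT3 peak with an unadjusted p under 0.05 lay in intron 15, chr13:28606618-28606953, with 13.3 and 17.0 against 16.7 and 31.2 normalised CPM (log2 fold change -0.63, SE 0.304). Its groups overlapped, and sgNT replicate 2 stood above the 3 other libraries.

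FLT1 (chr13:28874483-29069282, minus strand, 30 exons) lies on the other side of the guide, and the 3′ end of its body lies within 50 kb of it. The 4 FLT1 peaks within 50 kb, at the 3′ end of the gene, summed to 34.9 and 41.1 normalised CPM under sgFLT3-DE-1 and 42.4 and 41.6 under sgNT, with 3 lower and 1 higher estimates. The 17 farther peaks summed to 162.8 and 217 against 160.4 and 204, with 9 higher and 5 lower estimates among the 14 tested. The sums of the near peaks were barely apart between groups (41.1 against 41.6 at the nearest libraries), and those of the far peaks overlapped. How often such sums are apart elsewhere was not computed.

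Single FLT1 peaks gave no call. The highest, in intron 10 at chr13:28997137-28997453, had 30.9 and 40.9 against 30.4 and 34.8 normalised CPM (log2 fold change 0.15, SE 0.258), and its estimate was -0.08 without sgFLT3-DE-1 replicate 2. The lowest p among higher estimates was in intron 15 at chr13:28928036-28928177, with 11 and 21 counts with sgFLT3-DE-1 against 5 and 4 with sgNT (1.29, SE 0.633). The lowest p among lower estimates was in intron 27 at chr13:28883208-28883372, with 7 and 17 against 20 and 9 counts (-0.77, SE 0.508). Both rest on counts of 21 or fewer, and the intron 27 peak overlapped between groups. Higher groups without overlap were seen at 5 of 18 tested FLT1 peaks, 2 of 14 for FLT3 and 1 of 35 for PAN3. Lower groups without overlap were seen at 1 of 18, 2 of 14 and 11 of 35, beside the genome-wide 13.7% and 13.8% given above.

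The homeobox genes CDX2 (chr13:28535055-28543452, minus strand, 3 exons) and PDX1 (chr13:28494137-28500450, plus strand, 2 exons) lie farthest from the guide, with 299.7 kb or more between gene start and guide. Of their peaks, 3 of 4 tested for CDX2 and the 1 of PDX1 had estimates above 0. The peak over LINC00543 had 48.2 and 54.4 normalised CPM under sgFLT3-DE-1 and 40.1 and 53.3 under sgNT (log2 fold change 0.14, SE 0.257), and without sgNT replicate 1 the estimate was -0.06. The peak at chr13:28534478-28534678, 8.77 kb from the CDX2 start and past the gene's 3′ end, had 8.96 and 14.2 against 5.35 and 10.8 (0.56, SE 0.375). The lower one, at chr13:28527204-28527296, had 17 and 10 against 16 and 10 counts (-0.39, SE 0.513), and its estimate was 0.14 without sgFLT3-DE-1 replicate 2. The PDX1 peak, chr13:28508133-28508377, had 23 and 27 against 11 and 15 counts (0.44, SE 0.433). All 5 overlapped between groups in normalised CPM.

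URAD (chr13:28551854-28562830, minus strand, 2 exons), named for a decarboxylase of urate breakdown, had 3 peaks. Its highest, between URAD and FLT3 at chr13:28572135-28572377, had 37.4 and 36.0 normalised CPM under sgFLT3-DE-1 and 30.7 and 40.04 under sgNT (0.06, SE 0.255). That of intron 1, at chr13:28558480-28558705, had 16.7 and 18.4 against 14.7 and 16.0 (0.20, SE 0.288). The third, at chr13:28576340-28576526, had 8.96 and 7.30 against 6.35 and 12.4 (-0.20, SE 0.379). Only the intron 1 peak did not overlap, and each difference was within its standard error. The 9 peaks of CDX2, PDX1 and URAD together summed to 155 and 164 against 125 and 166.

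**Figure D3:**
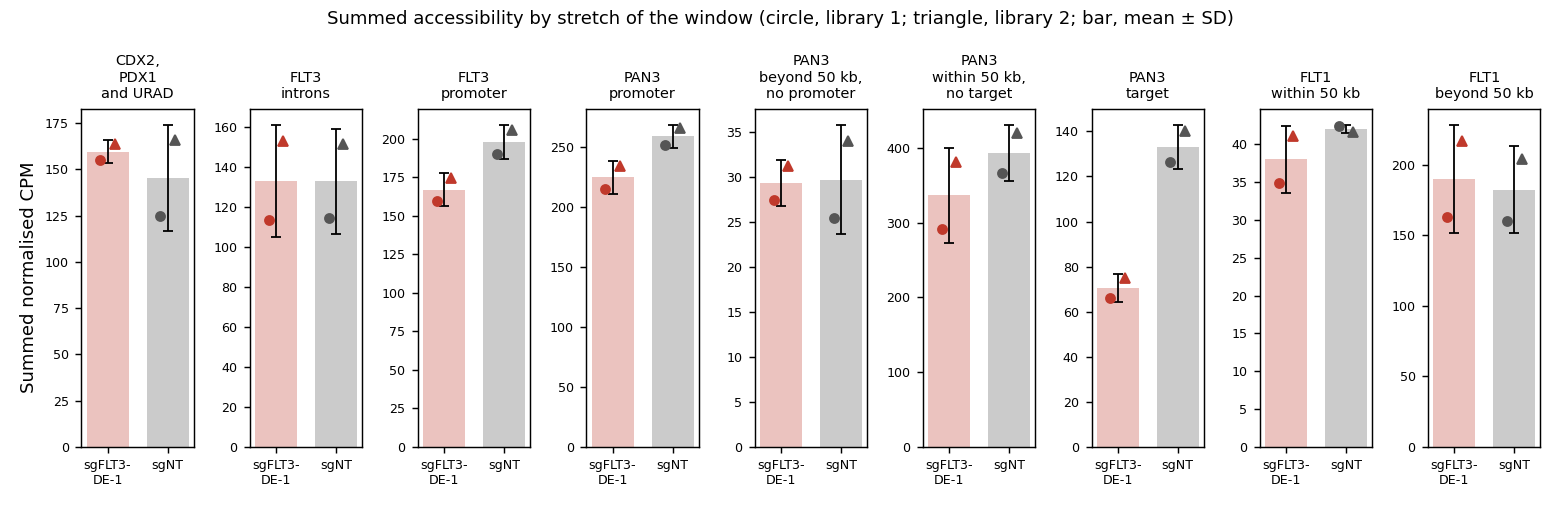
Summed normalised CPM (vertical axes, each starting at 0) of 9 stretches of the window in each library, with sgFLT3-DE-1 left of sgNT. Circles are the libraries numbered 1, triangles those numbered 2, and bars the mean ± SD. The 2 groups are apart for the FLT3 promoter (159 and 174 against 189.8 and 206), the PAN3 promoter (215 and 234 against 252 and 266) and the target. They are barely apart for the FLT1 peaks within 50 kb (34.9 and 41.1 against 42.4 and 41.6), and overlap in the 5 other stretches.

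Of the 12 members that did not pass the count filter, 3 belonged to FLT3, 5 to PAN3, 3 to FLT1 and 1 to CDX2. Their mean level was 1.44 to 3.31 normalised CPM with sgFLT3-DE-1 and 0.367 to 3.31 with sgNT. In 5 of them both sgFLT3-DE-1 libraries lay above both sgNT libraries, and in 1 they lay below. The same share was not computed over all peaks that failed the filter, so these counts have no reference. At the edges of the window, the outermost members were the PDX1 peak above and a FLT1 peak at chr13:29098294-29098424 (12 and 17 against 7 and 6 counts, log2 fold change 0.65, SE 0.585). The next peaks outside were at chr13:28449267-28449449, with 14 and 13 against 9 and 7 counts, and at chr13:29101890-29102068, with 22 and 40 against 19 and 18 counts.

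For a single value per gene, counts were summed over all peaks of each coding gene in the genome and tested in the same way over 15545 genes. FLT3 had 890 and 1487 counts under sgFLT3-DE-1 and 911 and 893 under sgNT (log2 fold change -0.11, SE 0.266). PAN3 had 1944 and 3264 against 2304 and 2148 (-0.28, SE 0.332), which is 82.5% of the sgNT mean after scaling. The scaled PAN3 sums did not overlap between groups and those of FLT3 did. FLT1, with 4 peaks outside the window, had 708 and 1284 against 669 and 664 (0.06, SE 0.254), and its estimate was -0.07 without sgFLT3-DE-1 replicate 2. CDX2 had 275 and 435 against 208 and 228 (0.20, SE 0.204), PDX1, with 2 peaks outside the window, 41 and 49 against 26 and 25 (0.35, SE 0.354), and URAD 204 and 279 against 155 and 171 (0.09, SE 0.207).

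None of the 6 genes passed (adjusted p = 1.0 for each by edgeR), and neither did any gene genome-wide (0%). Before adjustment, 0.675% of genes were lower and 0.244% higher at p under 0.05, and none of the 6 was among them. An estimate below 0 was found for 47.4% of genes. The scaled sums did not overlap for PAN3 in the lower direction (12.7% of all genes) and for CDX2 and PDX1 in the higher direction (9.41%). A range of 2 standard errors around the estimate left 64.3% to 134% of the sgNT level for FLT3, 52.1% to 131% for PAN3, 73.5% to 149% for FLT1 and 86.8% to 153% for CDX2. Without the target peak the PAN3 estimate was -0.18, and without all peaks within 50 kb of the guide it was -0.16.

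Ratios between genes within a library do not depend on library scaling, and they were compared for the 6 pairs of FLT3, PAN3, FLT1 and CDX2. The FLT3 to PAN3 ratio was 0.458 and 0.456 under sgFLT3-DE-1 and 0.395 and 0.416 under sgNT. The PAN3 to FLT1 ratio was 3.04 and 2.80 against 3.80 and 3.50, and the PAN3 to CDX2 ratio 7.07 and 7.5 against 11.1 and 9.42. PAN3 was thus lower relative to each of the 3 other genes in both sgFLT3-DE-1 libraries. The FLT3 to CDX2 ratio was 3.24 and 3.42 against 4.38 and 3.92, the FLT3 to FLT1 ratio 1.39 and 1.27 against 1.5 and 1.45, and the FLT1 to CDX2 ratio 2.33 and 2.685 against 2.92 and 2.693.

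In each of the 6 pairs the libraries of the guides did not overlap. For 2 libraries against 2, the exact two-sided permutation test cannot give a p below 0.33, and each pair reached that smallest value (p = 0.3333, and 0.3333 after Benjamini-Hochberg adjustment over the 6 pairs). No difference between genes can therefore be called. The 6 ratios share gene sums and so are not independent, and the share of other gene pairs without overlap was not computed. The FLT3 to PAN3 ratio kept its direction without the target peak (0.515 and 0.508 against 0.473 and 0.497). The FLT3 to FLT1 ratio overlapped without promoter peaks (0.584 and 0.598 against 0.565 and 0.617, exact p = 1).

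**Figure D4:**
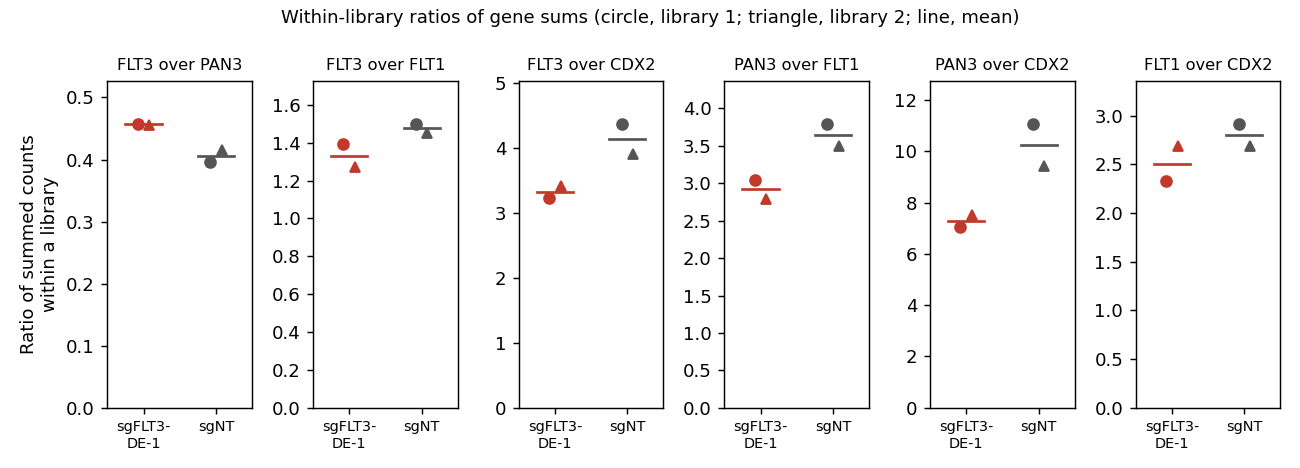
Ratio of summed counts of 1 gene to another within each library (vertical axes, starting at 0) for 6 pairs, with sgFLT3-DE-1 left of sgNT. Circles are the libraries numbered 1, triangles those numbered 2 and lines the mean. The 3 ratios with PAN3 are apart between guides, such as PAN3 over CDX2 at 7.07 and 7.5 against 11.1 and 9.42, and FLT1 over CDX2 has the nearest pair of libraries across guides, at 2.33 and 2.685 against 2.92 and 2.693.

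The families of these genes, themselves included, were counted across the genome by gene sum, where 47.4% of all genes had an estimate below 0. Of 20 receptor kinases of the FLT3 and FLT1 families and their ligands, 19 were tested and 0 passed, with 7 lower and 12 higher estimates and a median log2 fold change of 0.06, against 0.01 over all genes. KIT, the stem cell factor receptor, had 0.25 (SE 0.233), and FLT3LG, the ligand of FLT3, had -0.47 (SE 0.409) from 1 peak. Of 6 ParaHox and caudal genes, 5 were tested and 0 passed, with 1 lower and 4 higher and a median of 0.20. CDX1, a relative of CDX2, had 0.39 (SE 0.343), and GSX1, the third ParaHox gene of the cluster, had 0.06 (SE 0.203).

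Of 18 deadenylation genes, 17 were tested and 0 passed. Estimates were lower for 12, PAN3 among them, and higher for 5, with a median of -0.18. Lower estimates made up 47.4% of all gene sums and 62.7% of single tested promoter peaks. The part of promoter peaks in this split was not tested. PAN2, the catalytic partner of PAN3, had 0.04 (SE 0.289), against -0.28 for PAN3 itself. CNOT9, a subunit of the CCR4-NOT deadenylase, was the 1 list member with an unadjusted p under 0.05 (-1.08, SE 0.389, from 1 peak). The 8 coding genes that flank the window on chromosome 13 gave 4 lower and 4 higher estimates, 0 called and a median of 0.01. They ranged from -0.21 for SLC46A3 to 0.15 for MTUS2.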

How the data were processed

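ATAC-seq peak counts of 4 libraries of SEM cells were analysed, 2 with sgFLT3-DE-1 and 2 with sgNT. The authors deposited raw counts of reads in consensus peaks (hg19) with no normalisation. According to the submitters' processing notes, MACS2 2.1.1.20160309, bedtools 2.24.0, SAMtools 1.2, BWA and Trim Galore 0.4.4 with cutadapt were used. The study's reporting summary states that peaks were called on nucleosome-free fragments in each library. They were kept where the biological replicates of a condition shared them, and merged. The methods instead name Bowtie2, MACS2 on each sample, merging with BEDtools and counts from HTSeq, without these steps. Which account applies to the deposited counts was not settled. For a shift of read ends to the transposase cut, the status was not given in the sources used here. All 4 value columns were used (0 unused). Peaks were assigned to coding genes of GENCODE 44 (GRCh37). The guide sequence and the positions of HOXA9-bound regions came from the study's supplementary tables.

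Peaks with too few counts were removed with filterByExpr (minimum 10, total 15), libraries were scaled by TMM, and guides were compared with edgeR 4.0.16 (quasi-likelihood, guide only, R 4.3.3) over all 82558 remaining peaks, or over 15545 gene sums, with Benjamini-Hochberg adjustment at 0.05. Log CPM values for the GC correction and for the correlation of library deviations used a prior count of 2. Fold changes by edgeR used its default, and normalised CPM carry no prior. Gene sums were scaled on their own totals. Ratios were tested with exact permutations (SciPy 1.17.1). In simulated counts, 2-fold changes of single peaks were recovered in 18% and 4-fold changes in 70%, and those of gene sums in 36% and 96%. The scripts were tested on simulated data in this way. Alternatives used DESeq2 1.42.0, limma 3.58.1, other scalings and filters, GC correction, a replicate block, other assignments and single libraries left out. Counting error and the spread of 2 libraries limit the precision, at a median of 9 to 17 counts per peak.

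The members and gene lists were chosen with earlier results of these data known. Peaks were named by rule: the guide's peak, promoter peaks, each gene's highest peak and lowest p in each direction, HOXA9-bound peaks and those at the window's ends.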

Additional observations from a re-analysis of the deposited data

How the results depend on the processing

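The number of peaks called in the window was 0 in the reported fit and under most alternatives. It was 1 with loess offsets (the target) and 2 with a replicate block (the target at -0.92, adjusted p = 2.74e-10 by edgeR, and its neighbour in intron 12) or with the block and GC correction together (target -0.99, adjusted p = 4.78e-06). Over all peaks the block gave 57 lower and 17 higher calls and 63 gene sums. The libraries share only a number: deviations of same-numbered libraries from their group means correlated at 0.397, with 2 pairs. In log CPM, same-numbered libraries of the 2 guides correlated at 0.915 and 0.922. The 2 libraries of one guide correlated at 0.875 (sgFLT3-DE-1) and 0.887 (sgNT). Libraries that shared neither guide nor number correlated at 0.850 and 0.896. What the numbers stand for is not given in the labels. The PAN3 sum was -0.28 (adjusted p = 0.395) with the block and -0.36 (adjusted p = 3.69e-05) with the block and GC correction.

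Lower estimates for FLT3 numbered 8 without a filter. At a mean count of 50 or more, 3 were lower and 2 higher for FLT3, 9 and 1 for PAN3, 3 and 4 for FLT1, and 0 lower for CDX2, PDX1 and URAD. Higher estimates for PAN3 numbered 5 with block and GC correction. The FLT1 sum was -0.0062 with GC correction, -0.013 with GC correction and block and -0.019 without promoter peaks, a rescaling that lowered genes with no promoter peak alike (CDX2 to 0.12). The URAD sum was -0.046 when peaks went to the nearest start, and the URAD peak at 28572135 was -0.0060 without a filter, which moved the named peaks alike (the target to -0.98). The FLT3 to FLT1 ratio was 0.00088 (log2 difference) without promoter peaks. In 100 bases, motif shares were 4.6% for MEIS1, 8.05% for SPI1 and 0% for CDX2 and PDX1. In 400 bases they were 33.3% for MEIS1, 34.5% for RUNX1 and 10.3% for PDX1. Except for the motif windows, gene assignments and these common shifts, the cause was not tested.

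With each library left out in turn, lower and higher estimates numbered 4 to 10 and 5 to 12 for FLT3, 17 to 31 and 6 to 21 for PAN3, 6 to 13 and 5 to 14 for FLT1, and 1 to 5 and 4 to 8 for CDX2, PDX1 and URAD. Gene sums spanned -0.18 to -0.04 for FLT3, -0.36 to -0.21 for PAN3, -0.075 to 0.18 for FLT1, 0.08 to 0.36 for CDX2, 0.18 to 0.52 for PDX1 and -0.039 to 0.25 for URAD. Among the peaks named by rule, those whose sign turned were 28527204 (-1.09 to 0.14) and 28527795 (-0.062 to 0.33) of CDX2, 28572135 (-0.14 to 0.23) and 28576340 (-0.63 to 0.32) of URAD, 28714124 of PAN3 (-0.52 to 0.35) and 28997137 of FLT1 (-0.084 to 0.32). A fit with 1 library of a guide assumes that it varies like the other guide's pair. With 2 libraries a guide, a fold change of 2 or less at a single peak would mostly go uncalled. In simulated counts, 0% of 1.5-fold, 18% of 2-fold and 70% of 4-fold changes of single peaks were recovered.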

Other observations

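Around the guide, 3 further values of PAN3 peaks are given, and no relation between estimate and distance was computed. The peak in intron 14 of PAN3, 4.94 kb from the guide, had 26.9 and 39.6 normalised CPM with sgFLT3-DE-1, against 31.4 and 38.4 with sgNT. Farther out, at chr13:28855708-28855955 in intron 17 and 12.5 kb from the guide, there were 5.87 and 8.18 against 11.03 and 11.6 (log2 difference -0.66, SE 0.354). Its neighbour at chr13:28856705-28856897 had 12 and 14 counts against 25 and 11 (-0.94, SE 0.469). Both intron 17 peaks had lower groups without overlap in normalised CPM, neither passed edgeR's test, and all 3 peaks were chosen after their values were seen.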
